A study of Mus musculus with 2 samples.

Results

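The cells described here are C1q macrophages of the mouse adrenal gland that hold few transcripts of Mrc1 and Pf4. A cell was counted as a C1q macrophage if it held at least 10 unique molecular identifiers (UMIs, 1 for each captured RNA molecule) over C1qa, C1qb and C1qc, and these made up at least 0.2% of its UMIs. It also had to have no UMI of the T cell gene Cd3e and less than 0.5% of its UMIs from the steroidogenic genes Hsd3b1, Cyp21a1, Star and Cyp11a1. Among these macrophages the rule kept cells with fewer than 4 UMIs summed over Folr2, Lyve1, Cd163, Pf4 and Mrc1, and fewer than 6 UMIs summed over Gpnmb and Lpl. It kept 1226 of 3511 C1q macrophages, which is 34.9% (exact Clopper-Pearson 95% interval 33.3 to 36.5%), out of 19135 cells that passed the cell filters. The cells were thus chosen by their measured UMIs, and the levels of the genes of the rule are not results.

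Both groups were female C57BL/6J mice of the genotype SF1-Cre+;Znrf3Fx/Fx, at 9 weeks (1 library from 3 adrenals) and at 6 weeks (1 library from 2 adrenals). Cre under the SF1 promoter acts in steroid-producing cells, the adrenal cortex among them, where it removes Znrf3, a ubiquitin ligase that restrains Wnt signalling. Both ages carry this deletion, and no library without it was analysed here. The series asks how the immune cells of the gland differ between 9 weeks, given as the start of regression, and 6 weeks, given as the stage of overgrowth. With 1 library per age, from pooled adrenals, there was no replicate: no test was possible, and every difference below is one between a single library of each age. The 95% intervals account for counting error and nothing else.

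C1q is the protein that starts the classical complement cascade, and tissue macrophages are its main source. MHC class II molecules present peptides from engulfed material to CD4 T cells. Their genes are switched on together by the transactivator Ciita, which acts through a promoter module that includes the Y box, and the invariant chain Cd74 guides them to the endosome. Mrc1 (the mannose receptor) and Pf4 (a chemokine) are commonly high in long-lived tissue macrophages, while Ccr2, a chemokine receptor, marks monocytes and cells recently derived from them.

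The rule kept 910 of 2518 C1q macrophages at 9 weeks, or 36.1% (34.3 to 38.1%), and 316 of 993 at 6 weeks, or 31.8% (28.9 to 34.8%). As a share of all cells past the filters they were 8.64% (8.11 to 9.20%) of 10527 cells at 9 weeks and 3.67% (3.28 to 4.09%) of 8608 cells at 6 weeks. They held a median of 6112 UMIs and 2098 genes at 9 weeks and 5539 UMIs and 1902 genes at 6 weeks. The libraries shared 27 cell barcodes, and none of these was a cell kept by the rule. Scrublet, a doublet caller, marked 54 of the cells (5.93%) at 9 weeks and 6 (1.90%) at 6 weeks, and they were kept.

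These cells were not the main group of C1q macrophages. Those with 4 or more UMIs over the Folr2 group of genes and fewer than 6 over Gpnmb and Lpl were 60.1% (58.2 to 62.1%) at 9 weeks and 58.3% (55.2 to 61.4%) at 6 weeks. Of the Folr2-group UMIs in that larger class, Mrc1 supplied 55.3% and Pf4 41.4% at 9 weeks, and Mrc1 supplied 36.4% and Pf4 53.0% at 6 weeks. Folr2 itself supplied 0.483% at 9 weeks and 4.06% at 6 weeks. The classes are therefore called Mrc1/Pf4-low (the cells described here) and Mrc1/Pf4-high C1q macrophages. The last class, Gpnmb/Lpl-high, with 6 or more UMIs of Gpnmb and Lpl, held 3.73% (3.03 to 4.55%) of C1q macrophages at 9 weeks and 9.87% (8.09 to 11.9%) at 6 weeks.

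The limit of 4 UMIs cut through a continuous distribution. At 9 weeks 243 cells held 3 UMIs of the group, just inside, and 256 held 4, just outside. At 6 weeks 78 cells held 3 and 68 held 4. Of the cells under that limit, 8 at 9 weeks and 4 at 6 weeks held 5 UMIs of Gpnmb and Lpl, just inside, and 6 and 4 held 6, just outside. The C1q share had a median of 2.01% at 9 weeks and 1.94% at 6 weeks, 25 and 12 cells lay just inside its limit (under 0.4%), and 10 and 6 lay just outside (0.1 to 0.2%). The limit is on UMIs and not on a share, and the classes differed in depth: the Mrc1/Pf4-low cells had a median of 6112 UMIs and the Mrc1/Pf4-high cells 7924 at 9 weeks, and 5539 and 5994 at 6 weeks. In a further setting cells were thinned to 3000 UMIs before gating, and shallower cells were left out. The limits were lowered with it, to at least 5 C1q UMIs, fewer than 2 Folr2-group UMIs and fewer than 3 of Gpnmb and Lpl. The Mrc1/Pf4-low share was then 42.2% at 9 weeks and 31.8% at 6 weeks.

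**Figure D1:**
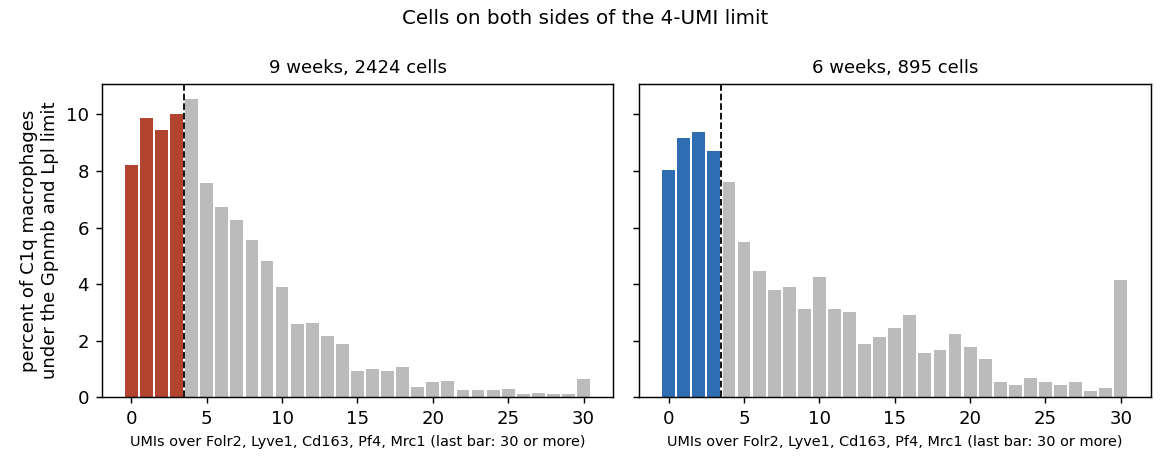
Percent of C1q macrophages (y axis, of those with fewer than 6 UMIs of Gpnmb and Lpl) by their UMIs over Folr2, Lyve1, Cd163, Pf4 and Mrc1 (x axis), at 9 weeks (left) and 6 weeks (right). Coloured bars are the Mrc1/Pf4-low cells, grey bars the Mrc1/Pf4-high cells, and the dashed line is the limit; no gap in the distribution lies at it, with 243 and 256 cells on its 2 sides at 9 weeks.

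The cells were macrophages by their markers. Thinned to 3000 UMIs, 85.7% of them held a UMI of Ms4a7, a membrane protein of macrophages, at 9 weeks and 81.3% at 6 weeks, against 0.974% and 1.17% of cells of an endothelial gate used as background and thinned likewise. Csf1r, the receptor for the macrophage growth factor CSF1, was found in 74.4% and 82.9% of them, against 0.649% and 0.468% of endothelial-gate cells. The chemokine receptor Cx3cr1 was found in 80.7% at 9 weeks and 82.5% at 6 weeks, against 0.974% and 0.703%. Unthinned, Ms4a7 was found in 91.3% and 88.0%, Csf1r in 89.8% and 92.1%, and Cx3cr1 in 90.2% and 88.9%.

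The genes that mark C1q macrophages in this series were not particular to the Mrc1/Pf4-low cells. Levels are given as CPM, the UMIs of a gene per 1000000 UMIs summed over a class in a library, and since each read comes from a transcript's 3' end they are not divided by length. Cx3cr1 stood at 720.1 CPM (698.9 to 741.9, exact Poisson 95% interval) in Mrc1/Pf4-low cells and 1012 CPM (995.1 to 1029) in Mrc1/Pf4-high cells at 9 weeks, and at 836.8 and 1178 CPM at 6 weeks. Vcam1, an adhesion molecule, stood at 472.4 CPM in Mrc1/Pf4-low cells and 725.3 CPM in Mrc1/Pf4-high cells at 9 weeks, and at 338.2 and 555.1 CPM at 6 weeks. In both libraries the Mrc1/Pf4-low cells thus had the lower level of each, and the same held for Hpgd, a prostaglandin-degrading enzyme (597.0 and 782.3 CPM at 9 weeks, 474.1 and 703.9 CPM at 6 weeks). Ms4a7 differed little, at 1176 and 1232 CPM at 9 weeks and 1258 and 1339 CPM at 6 weeks.

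The levels moved in steps with the UMIs of the gate's genes, within the Mrc1/Pf4-low cells as well as across the limit. Cx3cr1, Vcam1 and Selenop, a secreted selenoprotein of resident macrophages, were lowest in the cells with no Folr2-group UMI in both libraries. Selenop stood at 492.1 CPM in the 199 cells with 0 UMIs, 622.6 with 1, 785.5 with 2, 806.7 with 3 and 1070 CPM in the Mrc1/Pf4-high cells at 9 weeks. At 6 weeks the same steps were 501.6, 664.5, 847.1, 1077 and 1833 CPM. Depth also moved with the steps, from a median of 5530 UMIs with 0 to 6699 with 3 at 9 weeks, and its part in the steps was not tested. Ccr2 ran the other way and was concentrated in the cells with 0 UMIs, where the 9-week library had 332.3 CPM (300.2 to 366.9) and the 6-week library 747.4 CPM (664.5 to 837.7). In cells with 3 UMIs, Ccr2 was at 69.2 CPM (57.6 to 82.4) in the 9-week library and 89.3 CPM (65.4 to 119.1) in the 6-week library.

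Of 3 dendritic cell genes set along these steps, Cd209a was highest in the cells with 0 UMIs and Xcr1 was not. Cd209a, a lectin of monocyte-derived dendritic cells, was at 94.3 CPM (77.6 to 113.6) in the 9-week library and 30.4 CPM (15.7 to 53.1) in the 6-week library. In cells with 1 UMI of the group no Cd209a was counted at either age, and the upper Poisson bounds were 2.44 CPM at 9 weeks and 8.76 CPM at 6 weeks. In cells with 2 UMIs it was at 0 in the 9-week library and 11.96 CPM, from 6 UMIs, in the 6-week library. Xcr1, a chemokine receptor of cross-presenting dendritic cells, was at 28.9 CPM with 0 UMIs, 25.2 with 1, 51.6 with 2 and 65.3 CPM with 3 in the 9-week library, and in the 6-week library 3 UMIs of it were found in all, in the cells with 3. Flt3, a growth factor receptor of dendritic cells, was at 16.2 CPM with 0 UMIs in the 9-week library, from 19 UMIs, and at 10.1 CPM in the 6-week library, from 4 UMIs. The members with a C1q share under 0.4% likewise had Cd209a at 286.6 CPM at 9 weeks and 119.8 CPM at 6 weeks, and Ccr2 at 481.5 and 1156 CPM. Xcr1 stood at 183.4 CPM in them at 9 weeks and at 25.7 CPM, from 3 UMIs, at 6 weeks. In the other members Xcr1 stood at 38.4 and 0 CPM. Flt3 stood at 34.4 CPM (9 UMIs) and 25.7 CPM (3 UMIs) in the members under 0.4%, and at 6.6 and 1.75 CPM in the others. Whether dendritic cells caught by the gate account for these cells was not tested.

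**Figure D2:**
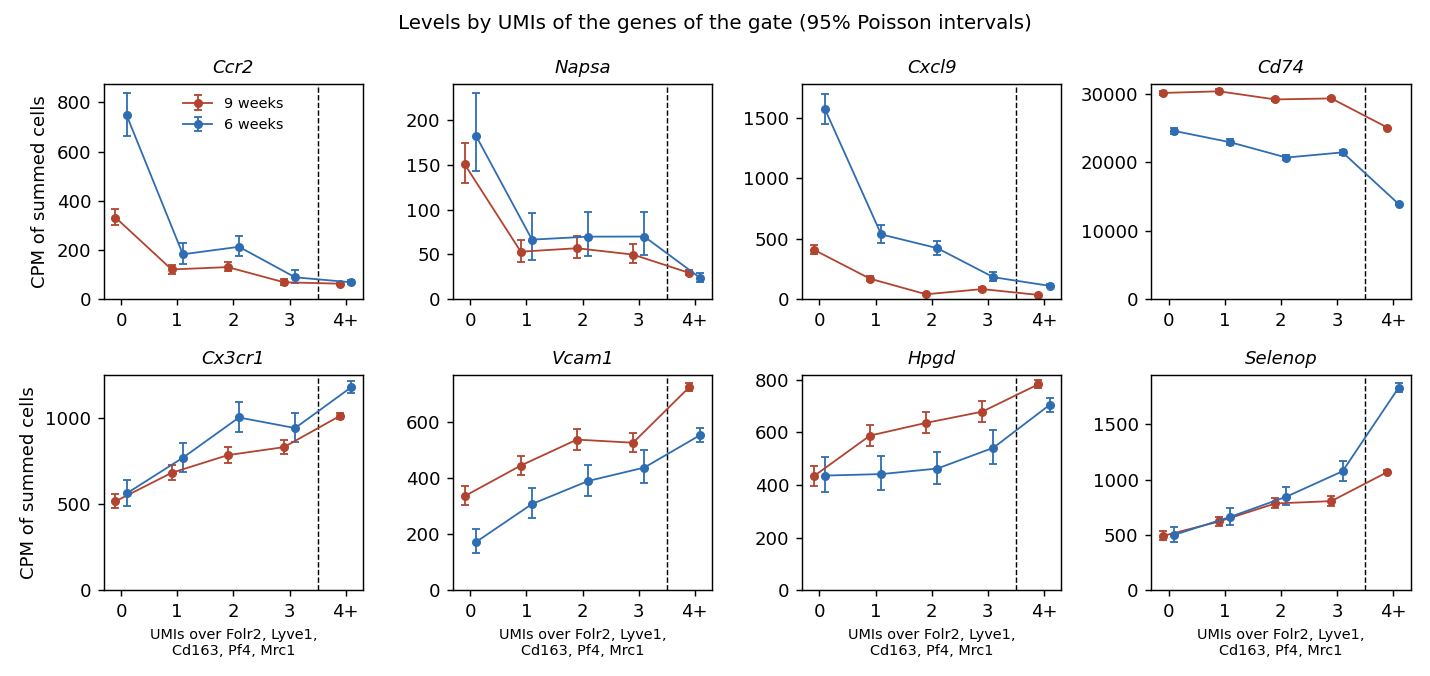
Levels of 8 genes (y axes, CPM of summed cells with 95% Poisson intervals) by UMIs of the gate's genes (x axes), at 9 weeks (red) and 6 weeks (blue); 0 to 3 UMIs are Mrc1/Pf4-low cells and 4+ is the Mrc1/Pf4-high class. Ccr2, Napsa and Cxcl9 are highest at 0 UMIs, while Cx3cr1, Vcam1 and Selenop are lowest there.

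RNA of other cell types was present in a minority of the cells. Taking 5 or more UMIs over a list of markers, 39 of 910 cells at 9 weeks and 5 of 316 at 6 weeks carried dendritic cell markers, 29 and 0 neutrophil markers, 28 and 5 endothelial markers, and 12 and 2 B cell markers. In all, 138 cells (15.2%) at 9 weeks and 19 (6.01%) at 6 weeks carried markers of another cell type, monocytes not counted, and Scrublet had called 52 and 6 of these. Monocyte markers were carried by 107 cells (11.8%) at 9 weeks and 43 (13.6%) at 6 weeks. Between the ages, gene counts, list medians and ratios of the named genes were also computed without the 138 and 19 cells. The gene counts between classes and between cells high and low in MHC class II were also computed without cells that carried such markers. The outcome is given where that changes the reading. Shares of cells by MHC class II and shares of dividing cells were not recomputed in this way. No fibroblast or pericyte marker reached 5 UMIs in any cell.

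Setting the Mrc1/Pf4-low cells beside the Mrc1/Pf4-high cells describes how the rule divides macrophages, and is no test. Few genes were 2-fold apart in both libraries: 5 of 7609 genes (0.0657%) were higher and 4 (0.0526%) lower in the Mrc1/Pf4-low cells, with the genes of the rule left out. The 5 were Cxcl9 and Cxcl10, interferon-induced chemokines that attract T cells, Ccr2, Napsa, an aspartic protease, and Ly6i. The 4 were Retnla, F13a1, a transglutaminase, Ccl7, a monocyte chemoattractant, and the Fc receptor-like gene Fcrls. Ly6i and Retnla fell outside the rule for named genes and were picked after their values had been seen.

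Cxcl9 stood at 158.4 CPM in Mrc1/Pf4-low and 36.0 CPM in Mrc1/Pf4-high cells at 9 weeks, and at 628.5 and 111.1 CPM at 6 weeks. This chemokine came from few cells: 62 of 910 cells held a UMI of it at 9 weeks, and the 5 highest held 50% of its UMIs or more. At 6 weeks 38 of 316 cells held one, and 4 held 50% or more. In the 25 cells with a C1q share under 0.4% at 9 weeks Cxcl9 stood at 848.4 CPM, against 127.0 CPM in the other Mrc1/Pf4-low cells. In the 12 such cells at 6 weeks it stood at 3621 CPM, against 424.8 CPM in the others. Ccr2 stood at 149.2 and 63.3 CPM at 9 weeks and at 286.4 and 69.0 CPM at 6 weeks, and 171 and 87 of the Mrc1/Pf4-low cells held a UMI; thinned, these were 16.01% and 27.0% of cells, against 0.649% and 0.468% in the endothelial gate. Without cells that carried markers of another type, the log2 ratio of Ccr2 was 1.44 at 9 weeks and 1.98 at 6 weeks, that of Napsa 1.53 and 1.74, and that of Cxcl9 0.90 and 1.70. The log2 ratio of Cxcl10 at 9 weeks was then 0.35, against 1.25 with all cells, and it then fell short of 2-fold, as did Cxcl9 at 9 weeks.

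Retnla, a secreted resistin-like protein of alternatively activated macrophages, was all but missing from the Mrc1/Pf4-low cells. No UMI of it was found in Mrc1/Pf4-low cells at 9 weeks (upper Poisson bound 0.612 CPM), against 22.5 CPM in Mrc1/Pf4-high cells. At 6 weeks it stood at 1.64 CPM in Mrc1/Pf4-low cells (from 3 UMIs) and 634.1 CPM in Mrc1/Pf4-high cells. Of 13 measured genes of resident macrophages 12 were lower in Mrc1/Pf4-low cells in both libraries, and none was higher in both. Its median log2 ratio was -0.59 at 9 weeks and -1.36 at 6 weeks, against -0.07 and -0.08 over all 7609 genes, of which 3685 were lower and 1504 higher in both libraries. Maf, a transcription factor of resident macrophages, stood at 472.8 CPM in Mrc1/Pf4-low and 674.1 CPM in Mrc1/Pf4-high cells at 9 weeks, and at 479.0 and 833.0 CPM at 6 weeks. Genes of homeostatic, microglia-like macrophages were lower in both libraries in 12 of 15, beside 3685 of 7609 over all genes.

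The comparison with Gpnmb/Lpl-high macrophages likewise describes the rule, which cut the same cells on Gpnmb and Lpl, and is no test. From the Gpnmb/Lpl-high macrophages the Mrc1/Pf4-low cells differed much more, with 17 of 7600 genes (0.224%) higher and 109 (1.43%) lower by 2-fold in both libraries. Those higher included Tmem119, known as a marker of microglia, at 58.1 and 18.5 CPM at 9 weeks and 82.4 and 28.0 CPM at 6 weeks, and P2ry13, a purine receptor, at 52.8 and 20.9 CPM at 9 weeks and 66.0 and 26.2 CPM at 6 weeks. Those lower included Fabp5, a fatty acid carrier, at 37.7 CPM in Mrc1/Pf4-low and 641.3 CPM in Gpnmb/Lpl-high cells at 9 weeks and 110.7 and 1284 CPM at 6 weeks. Mmp12, an elastase of macrophages, stood at 60.1 and 1349 CPM at 9 weeks and at 108.0 and 1187 CPM at 6 weeks. Atp6v0d2 (a subunit of the proton pump), Spp1 (osteopontin) and Clec4d were lower too. Of 18 genes of lipid-associated macrophages 9 were lower by 2-fold in both libraries, and the list's median log2 ratio was -1.37 at 9 weeks and -1.27 at 6 weeks, against -0.02 and -0.07 over all genes. The Gpnmb/Lpl-high cells were the deepest, with medians of 11831 UMIs at 9 weeks and 10222.5 at 6 weeks. They were also few, and 30 of 94 at 9 weeks and 14 of 98 at 6 weeks carried markers of another cell type. Among Mrc1/Pf4-low cells these were 138 of 910 and 19 of 316. The gene counts above include all of these cells. Recounted without the cells that carried such markers, both counts stayed within 1.5 times the values given. S100a9, at 8812 CPM outside the C1q gate at 9 weeks, then stood at 1783 CPM in Mrc1/Pf4-low and 7688 CPM in Gpnmb/Lpl-high cells.

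MHC class II was abundant in the Mrc1/Pf4-low cells at both ages, and 10 of 12 measured genes of the list were higher in them than in Mrc1/Pf4-high cells in both libraries, where 1504 of all 7609 genes were. At 9 weeks Cd74 made up 29739 CPM (29602 to 29877), and at 6 weeks 22281 CPM (22065 to 22498). H2-Ab1, a class II beta chain, stood at 10436 and 8551 CPM, and H2-Aa, an alpha chain, at 10251 and 8648 CPM. These and H2-Eb1, another beta chain, made up a median of 6.07% of a cell's UMIs at 9 weeks (middle 50% of cells 4.83 to 7.39%) and 4.74% (3.09 to 6.36%) at 6 weeks. The transactivator Ciita was at 195.4 CPM (184.4 to 206.9) in the 9-week library and at 156.0 CPM (138.5 to 175.2) in the 6-week library. In cortical-gate cells, which should lack them, the 4 genes made up 0.0355% of UMIs at 9 weeks and 0.00678% at 6 weeks, and in endothelial-gate cells 0.180% and 0.0299%. Background was thus several times higher at 9 weeks, and at both ages far below the level in macrophages.

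Cells with little MHC class II were a smaller share at 9 weeks than at 6 weeks. Under 1% of UMIs from the 4 genes was found in 10 of 910 Mrc1/Pf4-low cells at 9 weeks, or 1.10% (0.528 to 2.01%), and in 27 of 316 at 6 weeks, or 8.54% (5.71 to 12.2%). At least 5% was found in 71.5% (68.5 to 74.4%) at 9 weeks and 47.2% (41.5 to 52.8%) at 6 weeks. The Mrc1/Pf4-high cells differed more between the ages: 0.330% (0.107 to 0.769%) of them were under 1% at 9 weeks and 22.97% (19.6 to 26.6%) at 6 weeks. At 6 weeks the Mrc1/Pf4-low cells therefore had a higher median share, at 4.74%, than the Mrc1/Pf4-high cells, at 2.81%, while at 9 weeks the medians were 6.07% and 5.47%.

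**Figure D3:**
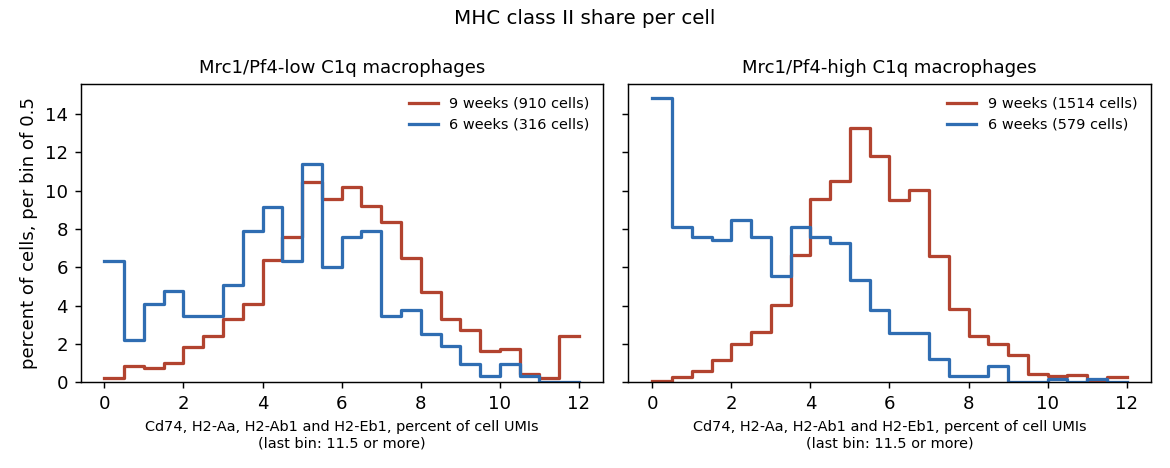
Percent of cells (y axis, bins of 0.5) by the share of a cell's UMIs from Cd74, H2-Aa, H2-Ab1 and H2-Eb1 (x axis) in Mrc1/Pf4-low (left) and Mrc1/Pf4-high (right) macrophages, at 9 weeks (red) and 6 weeks (blue). Cells under 1% are 1.10% and 8.54% of the left panel's cells at 9 and 6 weeks, and 0.330% and 22.97% of the right panel's.

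Across the MHC class II list, 14 of 16 genes were measured, and all 14 log2 ratios of 9 over 6 weeks lay above 0. Their median was 0.24 (medians of the genes' lower and upper bounds 0.12 and 0.49), against 0.06 over the 7877 genes tested. Of the 14, 2 were 1.5-fold higher and none lower, where 286 genes (3.63%) were higher and 156 (1.98%) lower over the whole table; with TMM scaling, which lowers every ratio by 0.06, these counts were 214 and 187. These 2 were H2-Oa (21.2 CPM at 9 weeks and 8.18 CPM at 6 weeks) and H2-Ob (16.3 and 8.73 CPM), the chains of H2-DO, best known from B cells. Both were higher outside the C1q gate, where H2-Oa stood at 54.4 CPM at 9 weeks and 8.79 CPM at 6 weeks, and the part of the 12 and 2 cells with B cell markers in these values was not tested. The same 14 genes had a median of 0.70 in the Mrc1/Pf4-high cells and 0.24 in the Gpnmb/Lpl-high cells. Without cells that carried markers of another type the median in the Mrc1/Pf4-low cells was 0.28, over 12 genes.

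The promoters of 3 class II genes are shown because their common regulation through the Y box is well known; none of the 3 was 1.5-fold apart between the ages. The letters GATTGG, the core of the Y box, searched on both strands, occur in the 300-base promoters (250 bases before to 50 after the start; RefSeq, build GRCm38.p6) of 18.2% of 27025 genes. Of the 12 genes of the list in that table, 10 hold it, among them H2-Aa, H2-Eb1 and H2-DMb1, a chain of the peptide-loading chaperone H2-DM; Ctss and Ifi30 do not. A match is a description and not a measured binding site. In capitals below is GATTGG or its other strand, CCAATC. H2-Aa (chr17:34287774-34288073, minus strand) holds it from 49 bases before the start, H2-Eb1 (chr17:34305617-34305916, plus strand) from 60 and, on the other strand, from 35 bases before, and H2-DMb1 (chr17:34152941-34153240, plus strand) from 62 bases before.
H2-Aa: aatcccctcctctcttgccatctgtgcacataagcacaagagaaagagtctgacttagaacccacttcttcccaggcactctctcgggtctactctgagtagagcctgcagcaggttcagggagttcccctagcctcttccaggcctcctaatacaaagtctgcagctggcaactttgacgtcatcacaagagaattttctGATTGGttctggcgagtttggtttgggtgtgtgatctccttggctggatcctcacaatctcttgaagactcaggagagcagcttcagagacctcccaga
H2-Eb1: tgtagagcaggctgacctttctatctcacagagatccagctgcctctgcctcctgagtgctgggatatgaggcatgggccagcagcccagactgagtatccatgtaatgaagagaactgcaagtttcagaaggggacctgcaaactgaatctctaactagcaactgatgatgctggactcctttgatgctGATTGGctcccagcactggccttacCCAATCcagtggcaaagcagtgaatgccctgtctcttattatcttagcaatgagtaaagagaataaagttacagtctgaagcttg
H2-DMb1: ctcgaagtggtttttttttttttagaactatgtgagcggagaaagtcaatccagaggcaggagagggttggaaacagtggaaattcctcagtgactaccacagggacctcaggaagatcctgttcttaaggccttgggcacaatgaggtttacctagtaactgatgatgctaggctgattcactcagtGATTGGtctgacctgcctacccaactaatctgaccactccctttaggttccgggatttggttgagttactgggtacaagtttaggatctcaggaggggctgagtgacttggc

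Within a library, the cells with the highest share of the 4 class II genes were compared, as a description, with an equal number that had the lowest (303 each of 910 at 9 weeks and 105 each of 316 at 6 weeks). The class II-high cells had medians of 8.07% at 9 weeks and 6.83% at 6 weeks, and the class II-low cells 4.14% and 1.96%. The score is continuous, and 355 of 910 and 85 of 316 cells lay within 0.5 percentage points of a cut. For this comparison the UMIs of the 4 class II genes were left out of the total to which CPM was scaled. In both libraries 25 of 7522 genes (0.332%) were 1.5-fold higher in the class II-high cells and 313 (4.16%) lower. H2-DMb1 stood at 1440 CPM in class II-high and 848.4 CPM in class II-low cells at 9 weeks, and at 1118 and 454.8 CPM at 6 weeks. Its partner chain H2-DMa was at 1494 and 900.1 CPM at 9 weeks, and at 1284 and 705.0 CPM at 6 weeks. The non-classical class I gene H2-M2 stood at 404.7 and 187.9 CPM at 9 weeks and at 409.1 and 43.8 CPM at 6 weeks, and Mgl2, a lectin of antigen-presenting cells, at 119.8 and 42.1 CPM at 9 weeks and at 190.5 and 27.4 CPM at 6 weeks.

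Also higher in the class II-high cells were Fcgr4, an activating Fc receptor (739.8 and 430.5 CPM at 9 weeks, 445.5 and 250.2 CPM at 6 weeks), Scimp, an adaptor in class II signalling, Cd72, Cd81, Clec4b1 and Zfas1. Ciita was not higher at 9 weeks, with 204.2 CPM in class II-high and 206.5 CPM in class II-low cells, while at 6 weeks it stood at 223.6 and 96.8 CPM. Markers of some other cell types were more frequent in the class II-low cells, and at 6 weeks others in the class II-high cells. Endothelial markers of 5 or more UMIs were carried by 2 class II-high and 20 class II-low cells at 9 weeks and by 0 and 4 at 6 weeks, and all 6 measured endothelial markers were 1.5-fold lower in the class II-high cells in both libraries. Dendritic cell markers were carried by 5 class II-high and 16 class II-low cells at 9 weeks and by 3 and 0 at 6 weeks. Monocyte markers were carried by 20 and 50 at 9 weeks and by 19 and 9 at 6 weeks. By level, 2 of 3 measured monocyte markers were 1.5-fold lower in the class II-high cells in both libraries. The median log2 ratio of the 3 was -3.43 at 9 weeks and -2.32 at 6 weeks. The matrix protein Sparc (31.03 and 78.7 CPM at 9 weeks) and Id2 (60.8 and 184.4 CPM) were among the lower genes. Without cells that carried markers of another type, Sparc stood at 24.6 and 18.3 CPM and Id2 at 59.1 and 63.2 CPM at 9 weeks. Fcgr4 then also missed 1.5-fold at 9 weeks, with a log2 ratio of 0.45, and the counts were 17 higher and 227 lower. All 11 measured mitosis genes were lower in the class II-high cells with and without those cells. Depth was a median of 5657 UMIs in class II-high and 5838 in class II-low cells at 9 weeks, and 5957 and 4656 at 6 weeks.

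Between the ages, 8 genes met the size and level rule for naming, 3 higher and 5 lower at 9 weeks. A further 12 past the size limit were left out because their level was higher in cells outside the C1q gate, among them S100a8, S100a9 and Camp. Ly6a, a GPI-anchored surface protein also known as Sca-1, was at 557.4 CPM (538.7 to 576.6) in the older library, against 157.1 CPM (139.5 to 176.3) in the younger, a log2 ratio of 1.795 (1.58 to 2.01). Endothelial-gate cells held more of it, 2469 CPM at 9 weeks and 1421 CPM at 6 weeks, and without cells that carried markers of another type its log2 ratio in the macrophages was 2.07. Adamdec1, a secreted metalloprotease, reached 65.4 CPM (59.1 to 72.2) at 9 weeks, against 19.6 CPM (13.8 to 27.2) at 6 weeks. Rgs1, a brake on chemokine receptor signalling, was at 147.6 CPM (138.0 to 157.6) at 9 weeks, against 56.7 CPM (46.4 to 68.7) at 6 weeks. All 3 were also higher at 9 weeks in the Mrc1/Pf4-high cells, by 2.22, 1.64 and 1.35 on the log2 scale.

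The lower genes were Cyp4f18, Cxcl9, Neat1, Fabp5 and Cbr2. Cyp4f18, which breaks down leukotriene B4, was at 9.79 CPM (7.46 to 12.6) at 9 weeks, against 59.5 CPM (48.8 to 71.7) at 6 weeks, while outside the C1q gate it was at 14.9 CPM at 9 weeks, above the level in the cells, and 5.05 CPM at 6 weeks. Neat1, a nuclear long non-coding RNA, was at 43.0 CPM (37.9 to 48.6) at 9 weeks, against 133.7 CPM (117.4 to 151.5) at 6 weeks, and its level outside the C1q gate differed likewise, at 45.2 and 127.5 CPM. Cbr2, a carbonyl reductase of resident macrophages, was at 25.2 CPM (21.4 to 29.6) at 9 weeks, against 63.8 CPM (52.8 to 76.5) at 6 weeks. Fabp5 was at 37.7 CPM (32.9 to 42.9) at 9 weeks, against 110.7 CPM (96.0 to 127.1) at 6 weeks, and at 6 weeks 4 cells held 50% or more of its UMIs; without the 5 highest cells of each library it was at 30.96 and 49.9 CPM. Cxcl9 was at 158.4 CPM (148.5 to 168.7) at 9 weeks, against 628.5 CPM (592.7 to 665.8) at 6 weeks. Without the 5 highest cells it was at 68.0 and 232.1 CPM. Without the cells whose C1q share was under 0.4% it was at 127.0 and 424.8 CPM. All 5 were also lower at 9 weeks in Mrc1/Pf4-high cells, with log2 ratios of -1.81 for Cyp4f18, -1.50 for Cxcl9, -1.55 for Neat1, -1.20 for Fabp5 and -2.20 for Cbr2.

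Interferon-induced genes were in part higher at 9 weeks, the chemokines Cxcl9 and Cxcl10 lower. Of 33 measured genes 8 were 1.5-fold higher and 2 lower, with a median log2 ratio of 0.32 (0.00 to 0.68). Over all 7877 tested genes 3.63% were higher and 1.98% lower, with a median of 0.06. Irf7, which drives type I interferon genes, stood at 185.3 CPM at 9 weeks and 97.1 CPM at 6 weeks. The antiviral effectors Ifit1, Ifit2, Ifit3, Rsad2 and Ifi44 and the ubiquitin-like Isg15 (231.4 and 139.7 CPM) were also among the higher genes. Cxcl9 and Cxcl10 (114.7 and 213.8 CPM) were lower, and through them the summed level of the list, at 5647 CPM at 9 weeks and 5720 CPM at 6 weeks, did not follow the median. Without the 5 highest cells of each library, Cxcl10 stood at 47.6 and 49.2 CPM. Without cells that carried markers of another type it stood at 67.2 CPM at 9 weeks and 215.5 CPM at 6 weeks, so its difference rested on which cells were kept. Cxcl10 was higher at 9 weeks in the Mrc1/Pf4-high cells, with a log2 ratio of 0.57.

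Class I antigen presentation was likewise a little higher. For the counts in this paragraph, 3.63% of all tested genes were 1.5-fold higher and 1.98% lower. All 17 log2 ratios of the class I list lay above 0, that of B2m (0.03) by less than the 0.06 of the TMM shift, with a median of 0.34 (0.14 to 0.65). Of the 17, 2 genes were 1.5-fold higher and none lower: H2-T22 (128.8 and 80.7 CPM) and H2-Q6 (87.7 and 50.2 CPM), whose reads may be shared with near-identical H2-Q genes. Psmb9, a subunit of the immunoproteasome, stood at 502.5 CPM at 9 weeks and 340.4 CPM at 6 weeks, while B2m, the light chain, stood at 2923 and 2867 CPM. Of the Fc receptors 1 of 7 was higher, Fcgr4 (534.9 CPM at 9 weeks and 320.2 CPM at 6 weeks), and 1 lower, Fcrls (5.98 and 46.9 CPM). Thinned to 3000 UMIs, Fcgr4 was found in 77.1% (74.0 to 80.0%) of cells at 9 weeks and 57.9% (51.6 to 64.1%) at 6 weeks, against 0.487% and 0.234% of endothelial-gate cells, and unthinned in 86.6% and 67.1%.

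The promoters of Ifit3 and Fcgr4 are shown as 2 genes of these groups that were higher at 9 weeks and hold the letters TTTCNNTTT (N is any base), the shared part of interferon-stimulated elements, searched on both strands. These letters occur in the promoters of 12.1% of 27025 genes and of 20 of the 26 interferon genes of the list that the table holds; Cxcl9, Ifit2, Irf1, Irf7, Irf9 and Oasl2 do not hold them in this window. Capitals mark the match. Ifit3 (chr19:34583279-34583578, plus strand) holds it from 156 and from 122 bases before the start, and Fcgr4 (chr1:171018676-171018975, plus strand) on the other strand from 72 bases before the start.
Ifit3: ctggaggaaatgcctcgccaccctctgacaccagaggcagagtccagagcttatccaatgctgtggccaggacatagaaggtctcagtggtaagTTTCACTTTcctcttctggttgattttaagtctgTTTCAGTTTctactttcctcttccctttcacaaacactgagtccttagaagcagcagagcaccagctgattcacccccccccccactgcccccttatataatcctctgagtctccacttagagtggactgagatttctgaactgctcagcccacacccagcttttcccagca
Fcgr4: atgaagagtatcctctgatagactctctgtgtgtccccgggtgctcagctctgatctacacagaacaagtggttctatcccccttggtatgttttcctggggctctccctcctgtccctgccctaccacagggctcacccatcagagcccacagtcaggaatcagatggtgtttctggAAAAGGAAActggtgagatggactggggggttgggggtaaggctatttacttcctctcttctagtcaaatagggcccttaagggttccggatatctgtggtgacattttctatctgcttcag

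Several genes of the lipid-associated macrophage state had lower levels at 9 weeks. Of 18 measured genes 6 were 1.5-fold lower and 1 higher, with a median log2 ratio of -0.45 (-0.56 to -0.31). Over all 7877 tested genes 1.98% were lower and 3.63% higher, with a median of 0.06. Trem2, the lipid-sensing receptor of this state, was found in 56.5% of cells at 9 weeks and 73.4% at 6 weeks, with 217.8 CPM (206.2 to 229.9), against 437.0 CPM (407.2 to 468.3). Thinned to 3000 UMIs these shares were 40.0% (36.5 to 43.5%) and 62.7% (56.4 to 68.7%), against 0.487% and 0.234% in endothelial-gate cells. The tetraspanin Cd9 (88.7 and 152.7 CPM), the protease inhibitor Cstb (250.8 and 388.4 CPM), Mmp12 (60.1 and 108.0 CPM), Spp1 (4.81 and 15.8 CPM) and Fabp5 were the other 5. The higher gene was Fabp4, whose level outside the gate was 490.7 CPM at 9 weeks and 321.9 CPM at 6 weeks, above that in the cells. Apoe, the apolipoprotein that takes up much of the RNA of these cells, stood at 36734 CPM at 9 weeks and 45814 CPM at 6 weeks. The same list had a median of -0.44 in Mrc1/Pf4-high cells and -0.05 in Gpnmb/Lpl-high cells.

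**Figure D4:**
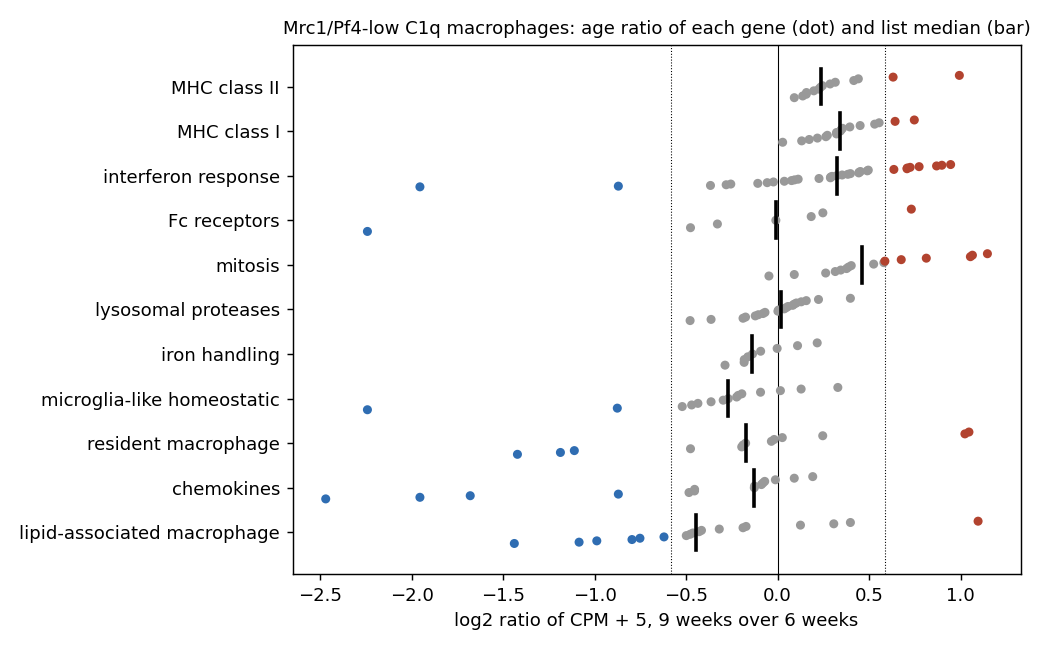
Log2 ratio of the level at 9 weeks over that at 6 weeks (x axis, 5 CPM added to each) for each measured gene of 11 lists (dots) in Mrc1/Pf4-low C1q macrophages, with list medians (bars); dotted lines mark 1.5-fold, and red and blue dots are genes past it. The MHC class II, class I and interferon medians lie at 0.24, 0.34 and 0.32, and the lipid-associated median at -0.45.

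Genes of resident and homeostatic macrophages were in part lower at 9 weeks. For the counts in this paragraph, 1.98% of all tested genes were 1.5-fold lower and 3.63% higher. Of 13 resident genes 3 were lower, Cbr2, F13a1 (6.64 and 26.2 CPM) and Ltc4s, a leukotriene synthase (17.3 and 43.1 CPM). C4b and Ednrb, both with higher levels outside the gate, were the 2 higher. The list's median log2 ratio was -0.17, against -0.77 in Mrc1/Pf4-high cells. The rule caps Folr2-group UMIs in the Mrc1/Pf4-low cells only. Of C1q macrophages under the Gpnmb and Lpl limit, 0.660% at 9 weeks and 4.13% at 6 weeks held 30 or more. The part of this cap in the 2 medians was not tested. Of 15 homeostatic genes 2 were lower, Fcrls and Olfml3 (100.3 and 188.2 CPM), and none higher, with a median of -0.27 (-0.48 to -0.05). Of 15 chemokines 4 were lower, Ccl8 (11.45 and 86.2 CPM), Ccl24 (7.97 and 36.5 CPM), Cxcl9 and Cxcl10, and none higher. Ccl8 and Ccl24 attract monocytes, T cells and eosinophils, and both rested on few cells: 20 of 910 cells held Ccl8 at 9 weeks and 23 of 316 at 6 weeks, and 4 and 8 held Ccl24.

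Monocyte genes pointed both ways. Ccr2, S100a4 and S100a6 were lower at 9 weeks, with S100a4 at 42.7 CPM at 9 weeks and 146.2 CPM at 6 weeks, while Ly6c2, Plac8, Chil3, Hp, Itgal and Ly6c1 were among those higher. The list's median log2 ratio was 0.58 while its summed level was lower, at 9472 CPM at 9 weeks and 11896 CPM at 6 weeks. Chil3 stood at 140.1 and 1.64 CPM, with 50% of its UMIs at 9 weeks in 1 cell, and Plac8 at 163.0 and 76.9 CPM, from 72 and 15 cells. Outside the C1q gate both differed in the same direction, with Chil3 at 574.8 and 6.18 CPM and Plac8 at 407.5 and 88.6 CPM.

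Each remaining list held between 0 and 3 genes past 1.5-fold. Over all 7877 tested genes 3.63% were higher and 1.98% lower. Every remaining list with a gene past 1.5-fold thus held a larger share than the whole table, though from no more than 3 genes. None of 20 lysosomal protease genes and none of 9 iron-handling genes was 1.5-fold apart, with medians of 0.02 and -0.14. Of 21 transcription factors 1 was higher, Id3 (30.9 and 16.9 CPM), and 2 lower, Mitf (20.1 and 36.0 CPM) and the oxysterol receptor Nr1h3 (14.4 and 25.1 CPM). Of 10 complement genes 1 was higher and 2 lower, and of 14 inflammatory cytokine and activation genes Cd80 was higher and Cd40 and Il1rn lower. Of 16 genes of uptake of dead cells 1 was lower, Nr1h3, and none higher. Of 14 genes of tissue dissociation and early response 3 were higher, Fos, Hspa1a and Hspa1b, and none lower, and 1 cell held 84 of the 108 UMIs of Hspa1a at 9 weeks.

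Dividing cells were few at both ages. Of cells thinned to 3000 UMIs, 52 of 781 at 9 weeks, or 6.66% (5.01 to 8.64%), and 10 of 252 at 6 weeks, or 3.97% (1.92 to 7.18%), held 2 or more UMIs over the mitosis list, and these intervals overlap. The thinning left out 129 and 64 shallower cells, and the unthinned shares were 10.0% and 4.75%. Of 16 mitosis genes 6 were 1.5-fold higher and none lower, where 3.63% and 1.98% of all tested genes were. Among the 6 were Mki67 (60.3 and 26.2 CPM) and Top2a (72.2 and 32.2 CPM). Without cells that carried markers of another type 2 of 14 were higher, and the list's median log2 ratio was 0.10, against 0.46 with all cells. In Mrc1/Pf4-high cells the thinned shares were 9.82% (8.35 to 11.46%) at 9 weeks and 5.67% (3.86 to 7.997%) at 6 weeks.

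Neutrophil RNA moved with age beside all of these values. The summed level of 7 neutrophil markers was 3244 CPM at 9 weeks and 35.5 CPM at 6 weeks, and 95.04% of its UMIs at 9 weeks lay in the 29 cells with 5 or more. Without them it was 168.7 CPM at 9 weeks, and in endothelial-gate cells it was 606.3 and 17.2 CPM. Dendritic cell markers summed to 141.4 and 52.4 CPM, endothelial markers to 168.7 and 81.8 CPM, and B cell markers to 90.3 and 47.5 CPM. Medulla markers summed to 2.66 CPM at 9 weeks and 91.1 CPM at 6 weeks, where 1 cell held 96.4% of them. Without the cells that carried these markers all 8 named genes kept their direction and stayed 2-fold apart, and the list medians given above for MHC class II, MHC class I, interferon and lipid-associated genes were 0.28, 0.38, 0.33 and -0.47.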

How the data were processed

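Droplet single-cell 3' RNA libraries, 1 per age, were made from live (DAPI-negative) sorted cells once red cells had been lysed, per the labels' protocols. The authors deposited raw UMI counts, whole numbers with no scaling, from Cell Ranger 6.0.1 and mm10, per the submitters' processing notes. The annotation release was not given in the sources used here. Cells needed 500 genes and at most 25% mitochondrial UMIs. UMIs of a class were summed per library and scaled to CPM, so the library differences of 9 over 6 weeks are ratios after adding 5 CPM, which understates the change of low genes. Genes with at least 10 CPM in either library and 10 UMIs in all were compared, and called at 1.5-fold (classes: 2-fold in both libraries). Ranges of log2 ratios come from the bounds of both exact Poisson intervals. Doublets were called with Scrublet in scanpy 1.11.5. Genes were named by age if their log2 ratio was at least 1 in size and the library with the higher level had 50 CPM, 30 UMIs, detection in 10% of cells and no higher level outside the C1q gate. For classes and class II groups, the 10 furthest apart each way were taken, and members of the lists could be named. The endothelial gate is 5 UMIs of endothelial genes with no Ptprc, and the cortical gate 0.5% of UMIs from the 4 steroidogenic genes with no Ptprc and under 10 C1q UMIs. Genes with near-identical copies (H2-Q, Ly6c and Ifit3 genes) are uncertain. Cells were thinned with a fixed seed. The calls were also run on simulated counts with known changes, which held counting error alone. That simulation cannot show how often 2 libraries differ by 1.5-fold for other reasons. Some list members are not reported here by name. The members, the gates and the lists were chosen with earlier results of these data known. Work was done in Python 3.11.15, numpy 2.4.6, scipy 1.17.1 and pandas 2.3.3.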

Additional observations from a re-analysis of the deposited data

Results flagged for a closer look

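For 3 genes of the lists the ages differed in opposite directions, each by at least 1.5-fold, in Mrc1/Pf4-low and in Mrc1/Pf4-high macrophages; with 1 library per age the difference was not tested. S100a6, a calcium-binding protein of monocytes, had a log2 ratio of 9 over 6 weeks of -0.71 in Mrc1/Pf4-low and 1.04 in Mrc1/Pf4-high cells; without the 5 highest cells of each library it stood at 75.6 CPM at 9 weeks and 101.5 CPM at 6 weeks in Mrc1/Pf4-low cells, less than 1.5-fold apart. Ednrb, an endothelin receptor, had 1.046 and -1.53, and its UMIs in Mrc1/Pf4-low cells came from 20 of 910 cells at 9 weeks and 1 of 316 at 6 weeks. The heat shock gene Hspa1a had 1.21 and -0.64, and 1 cell held 84 of its 108 UMIs in Mrc1/Pf4-low cells at 9 weeks; without it the level was 3.99 CPM at 9 weeks, against 4.91 CPM with all cells at 6 weeks.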

How the results depend on the processing

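Of the main values recomputed under an alternative, 77 stayed within their own interval or within 1.5 times the count, and 15 moved. Shares and counts have no direction to reverse. Among the main values only the MHC class II, MHC class I, interferon and lipid-associated medians could be called reversed, and none was. Limits of 2 and 3 UMIs gave Mrc1/Pf4-low shares of 16.7% at 9 weeks and 14.3% at 6 weeks, 767 genes higher and 304 lower, and a lipid-associated median of -0.20. Gating on thinned cells, with the lowered limits given above, gave 42.2%, and a minimum of 1000 genes 34.2%, at 9 weeks. A pseudocount of 1 CPM gave 477 higher and 263 lower genes, and 10 CPM gave 167 higher; without the filter on low levels the counts were 491 and 277. With 1 CPM, 8 genes were higher and 8 lower than in Mrc1/Pf4-high cells, and 32 were higher than in Gpnmb/Lpl-high cells. The cause was not tested. TMM factors moved all log2 ratios by 0.06 and gave 214 higher and 187 lower genes, and the mean over cells of each cell's CPM 410 and 227. Of values for single genes and further lists 235 were unchanged in this sense, 4 moved (the Fc receptor median, near 0) and Rgs1 fell just under its limit (0.99) with limits of 2 and 3 UMIs. Leaving out cells with 5 or more UMIs of another type's markers was chosen after seeing the data. No paired analysis was possible because there is 1 library per age. The depth of 316 cells at 6 weeks limits genes under about 10 CPM.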
